A study of Mus musculus with 6 samples.

Results

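The regions described here are stretches of chromatin carrying trimethylation of histone H3 at lysine 4 (H3K4me3) that run across the gap between neighbouring protein-coding genes. Regions of the H3K4me3 lists of both genotypes on chromosomes 1 to 19 and X were merged wherever they overlapped. A merged region was a member if it was under 6000 bp wide and covered both facing boundaries of neighbouring genes that do not overlap and lie at most 1 kb apart. This gave 953 member regions, of 58390 merged regions in all and 57468 under 6000 bp. The members cover the facing boundaries of 961 gene pairs with 1856 genes, and 8 regions hold more than 1 pair. The knockout cells were CD8+ tumour-infiltrating lymphocytes of C57BL/6 mice bearing E0771 tumours, a mouse mammary cancer line, in which Atg5 had been deleted by Cre recombinase (knockout). The wild-type cells carried the same cell type label and came from wild-type C57BL/6 mice with the same tumour. The labels give neither the Cre driver nor the number of animals pooled, and each genotype had 1 H3K4me3 library, so the genotypes are compared without replicates and no test of a difference between them is possible. The series holds 6 samples, and those for H3K27me3 and for input were not analysed here. H3K4me3 lists do not check the Atg5 deletion.

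H3K4me3 is deposited around active and poised transcription start sites, mostly on the nucleosomes that flank the start. In head-to-head pairs the starts of neighbouring genes face each other across the gap, and transcription runs away from it on both sides. Where the gap is short, the stretch between the starts is called a bidirectional promoter. Such promoters are usually rich in CpG and serve many housekeeping genes of DNA repair, mitochondria and the cell cycle. In tandem pairs the start of a gene faces the end of its neighbour, and in tail-to-tail pairs both ends face each other.

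The knockout list held 46547 regions covering 73.1 Mb and the wild-type list 48525 regions covering 71.2 Mb, with median widths of 1130 and 1103 bp. Read depth is not stated in the sources used here, and the length of a called region depends on it. The labelled cell type was checked against its marker genes, a gene counting as marked where a region lay within 1000 bp of its boundary. All 16 T cell markers were marked in the knockout list and 5 of 16 in the wild-type list, where Cd3e, Cd3g, Cd8a, Lck, Lat and Thy1 were among the 11 without a region. Of 11 myeloid markers, 9 were marked in the knockout list and 11 in the wild-type list. Epithelial and mammary tumour markers were marked in 9 of 10 cases in the knockout list and in 8 of 10 in the wild-type list. The library labelled wild type thus goes against its label at most T cell genes. Cell makeup and genotype cannot be told apart in any knockout against wild-type difference below.

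The promoters at the members are shown first by pairs that carry the ETS core. Each sequence is the RefSeq promoter window of the GRCm38.p6 build, 250 bases before and 50 bases after a gene start, written 5′ to 3′ along its gene. Of the 4 letter patterns counted below, capitals mark the ETS core, CCGGAAG or its reverse complement, the pattern bound by ETS factors such as GABP. The first pair is Slc35a5, of the nucleotide-sugar transporter family, at chr16:45158624-45158923 on the minus strand, and Atg3, the E2-like enzyme that attaches LC3-family proteins to lipid, at chr16:45158579-45158878 on the plus strand. It is shown because the pair is head to head, holds an autophagy gene and carries the same 2 ETS cores in each window, read from opposite strands.
Slc35a5: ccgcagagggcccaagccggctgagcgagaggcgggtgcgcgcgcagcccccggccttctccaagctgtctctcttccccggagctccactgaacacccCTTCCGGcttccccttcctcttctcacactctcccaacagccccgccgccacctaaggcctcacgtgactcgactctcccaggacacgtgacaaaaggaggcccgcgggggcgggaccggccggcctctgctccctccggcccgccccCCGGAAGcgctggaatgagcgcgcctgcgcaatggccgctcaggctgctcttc
Atg3: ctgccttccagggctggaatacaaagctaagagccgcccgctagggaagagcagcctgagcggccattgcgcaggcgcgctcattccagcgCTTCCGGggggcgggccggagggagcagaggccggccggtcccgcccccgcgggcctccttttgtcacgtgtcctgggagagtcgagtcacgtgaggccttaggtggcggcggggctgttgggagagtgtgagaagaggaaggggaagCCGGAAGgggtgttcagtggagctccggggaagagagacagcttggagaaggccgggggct
The other pair is Mrps12, a protein of the small mitochondrial ribosomal subunit, at chr7:28741772-28742071 on the minus strand, and Sars2, the mitochondrial seryl-tRNA synthetase, at chr7:28741718-28742017 on the plus strand. It is shown because both products serve mitochondrial translation and a single ETS core lies in the windows of both genes.
Mrps12: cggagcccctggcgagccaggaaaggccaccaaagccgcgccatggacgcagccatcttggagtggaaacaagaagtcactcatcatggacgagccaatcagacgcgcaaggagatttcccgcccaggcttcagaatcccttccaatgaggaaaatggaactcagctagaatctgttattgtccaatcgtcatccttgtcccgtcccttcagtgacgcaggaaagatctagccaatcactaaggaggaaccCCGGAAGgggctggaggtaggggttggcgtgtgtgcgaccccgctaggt
Sars2: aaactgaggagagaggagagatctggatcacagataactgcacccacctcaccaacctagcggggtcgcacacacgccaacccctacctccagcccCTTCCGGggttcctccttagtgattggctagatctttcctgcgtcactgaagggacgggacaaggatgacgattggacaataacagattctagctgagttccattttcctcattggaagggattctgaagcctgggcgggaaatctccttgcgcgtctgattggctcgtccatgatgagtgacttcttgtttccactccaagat

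The windows of 3 members whose covered length differed between the libraries by over 1000 bp are shown as examples without the ETS core. Lat, the adaptor that T cell receptor signalling is built on, is given at chr7:126369519-126369818 on the minus strand, from a start 137 bp inside the gene boundary. Il18r1, a subunit of the interleukin-18 receptor, is given at chr1:40465302-40465601 on the plus strand. These windows have no capitals. Lat matched none of the patterns, and Il18r1 matched only the NF-Y box. Hadha and Hadhb, the alpha and beta subunits of the mitochondrial trifunctional protein, are a head-to-head pair whose windows matched only the GC box, at chr5:30154931-30155230 on the minus strand and at chr5:30155003-30155302 on the plus strand.
Lat: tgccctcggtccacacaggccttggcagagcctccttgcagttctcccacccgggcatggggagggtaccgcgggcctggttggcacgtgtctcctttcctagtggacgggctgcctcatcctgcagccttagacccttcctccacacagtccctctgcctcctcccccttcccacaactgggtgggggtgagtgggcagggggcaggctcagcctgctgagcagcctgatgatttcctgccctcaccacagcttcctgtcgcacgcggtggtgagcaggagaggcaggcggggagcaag
Il18r1: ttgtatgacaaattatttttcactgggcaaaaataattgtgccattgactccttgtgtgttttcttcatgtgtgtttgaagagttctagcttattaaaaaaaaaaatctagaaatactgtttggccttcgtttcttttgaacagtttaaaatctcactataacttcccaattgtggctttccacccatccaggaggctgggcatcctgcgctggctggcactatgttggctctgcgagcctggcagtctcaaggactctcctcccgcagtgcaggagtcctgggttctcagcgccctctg
Hadha: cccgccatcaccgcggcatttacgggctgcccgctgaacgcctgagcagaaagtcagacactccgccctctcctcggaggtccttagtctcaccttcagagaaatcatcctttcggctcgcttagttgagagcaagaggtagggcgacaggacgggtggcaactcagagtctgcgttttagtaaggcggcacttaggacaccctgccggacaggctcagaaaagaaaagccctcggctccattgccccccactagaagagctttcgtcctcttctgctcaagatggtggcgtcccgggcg
Hadhb: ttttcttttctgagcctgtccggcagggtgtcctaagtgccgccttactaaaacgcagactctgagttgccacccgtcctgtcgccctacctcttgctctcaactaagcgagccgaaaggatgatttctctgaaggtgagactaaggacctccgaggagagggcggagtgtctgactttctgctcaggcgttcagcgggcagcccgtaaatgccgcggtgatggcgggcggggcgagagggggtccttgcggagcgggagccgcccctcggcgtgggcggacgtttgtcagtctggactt

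The ETS core was found in 269 of 859 windows of head-to-head members (31.3%, 95% exact binomial interval 28.2 to 34.5). It was found in 646 of 3891 windows of single-gene promoter regions (16.6%, 15.4 to 17.8) and in 1625 of 13320 windows of the whole promoter table (12.2%). The 2 windows of a head-to-head pair overlapped in 341 of 366 pairs, so a site can be counted for both genes. With only the left gene of each pair the share was 30.4% (130 of 427). In tandem members, the window of the gene whose start faces the gap held it in 46 of 171 cases (26.9%, 20.4 to 34.2). The TATA box TATAAA went the other way, with 3.96% of head-to-head windows, 10.5% of tandem windows, 7.94% of single-gene windows and 15.0% of all windows. The GC box GGGCGG was in 70.5% of head-to-head windows and 66.4% of single-gene windows, and the NF-Y box CCAAT in 45.8% and 40.5%. All patterns were searched on both strands, each on its own, so matches of different patterns may overlap, and a match is a description, not a bound site.

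**Figure D1:**
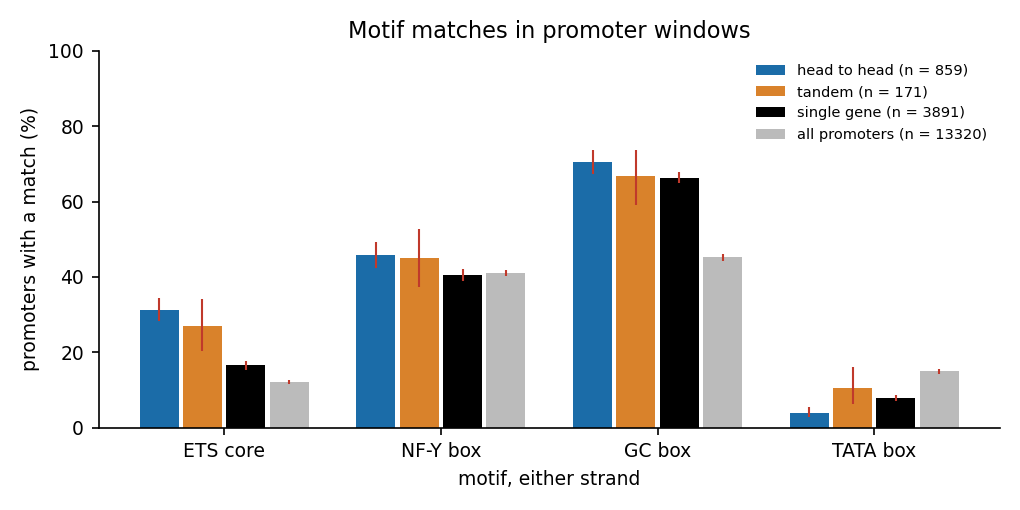
Share of 300-base RefSeq promoter windows (%, vertical axis) with a match on either strand to each of 4 letter patterns, for head-to-head members, tandem members (the gene whose start faces the gap), single-gene promoter regions and all windows of the table; red lines are 95% exact binomial intervals. The ETS core was in 31.3% of head-to-head windows and 16.6% of single-gene windows, and the TATA box in 3.96% and 7.94%.

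Base composition differed in the same comparison. The median ratio of observed to expected CpG was 0.867 in head-to-head windows (95% interval of the median 0.851 to 0.880), 0.741 in tandem windows, 0.750 in single-gene windows and 0.557 in all windows. Median GC content was 62.3% in head-to-head windows, 59.7% in tandem windows, 60.7% in single-gene windows and 55.7% in all windows. The part of base composition in the shares of the letter patterns was not tested.

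Whether a close gene pair had a region across its gap depended on how the genes were turned. Of 568 head-to-head pairs at most 1 kb apart, 503 had a member region (88.6%, 85.6 to 91.1). The share was 46.2% for tandem pairs (205 of 444, 41.5 to 50.9) and 4.45% for tail-to-tail pairs (19 of 427, 2.70 to 6.86). Orientation was not given for 570 pairs, because the promoter table lacked the strand of at least 1 of the genes, and 234 of these had a member region (41.1%). A region covered only 1 of the facing boundaries at 11 head-to-head pairs, 76 tandem pairs and 13 tail-to-tail pairs. At none of the 2009 pairs were the boundaries covered by separate regions, which allows a share of up to 0.183%. Another 56 pairs lay in regions of 6000 bp or more, and 847 pairs had no region at either boundary, among them 390 of the 427 tail-to-tail pairs.

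**Figure D2:**
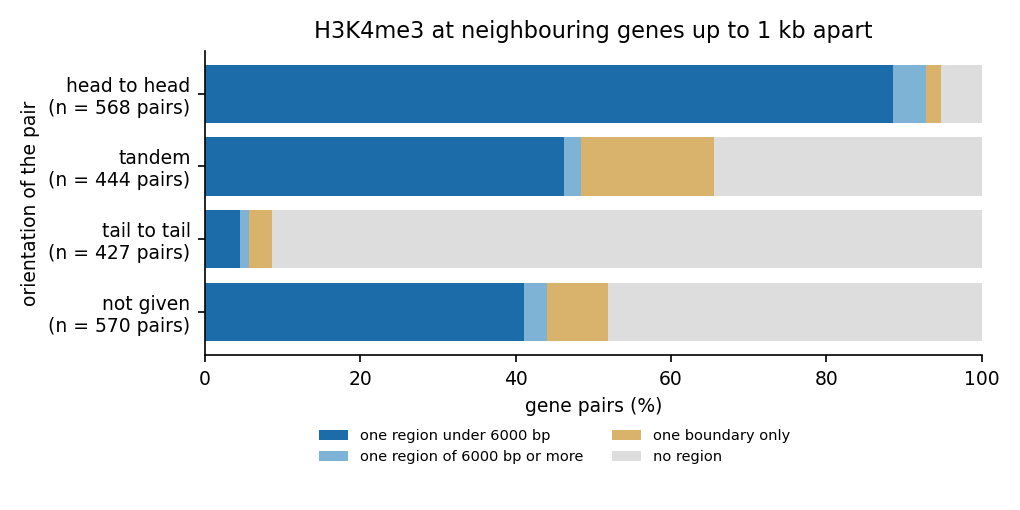
Share of neighbouring gene pairs at most 1 kb apart (%, horizontal axis) by orientation and by how the merged H3K4me3 regions covered their facing boundaries. A member region lay at 88.6% of head-to-head, 46.2% of tandem and 4.45% of tail-to-tail pairs.

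Head-to-head pairs had the higher share in each step of gap width. The share of head-to-head pairs with a member region was 91.9% at gaps of up to 100 bp, 85.7% at 101 to 250 bp, 93.8% at 251 to 500 bp and 65.9% at 501 to 1000 bp. Tandem pairs gave 38.6%, 62.8%, 52.6% and 37.8% over the same steps. The median gap was 97 bp in head-to-head members and 377 bp in tandem members.

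Members were wider than promoter regions of single genes. Single-gene promoter regions were the 6354 merged regions under 6000 bp that covered the start of a gene with no other coding gene within 5 kb, the strand being unknown for some, in which case either boundary counted. The median width was 3014 bp in members (95% interval of the median 2948 to 3092) and 2589.5 bp in single-gene promoter regions (2563 to 2621), with 1113 bp over all merged regions under 6000 bp. Head-to-head members had a median of 3138.5 bp (3035 to 3227), tandem members 2472.5 bp (2317 to 2637) and the 17 tail-to-tail members 3403 bp (2803 to 4063). The median of tandem members was thus no higher than that of single-gene regions, although the rule asks of every member that it span a gap. That requirement removes narrow regions, and 6 members (0.630%) were under 1000 bp, against 413 single-gene regions (6.50%). In head-to-head members the width rose only weakly with the gap, with a Pearson correlation of 0.186 and a Spearman correlation of 0.219 across 503 pairs, which share libraries and are given as a description.

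**Figure D3:**
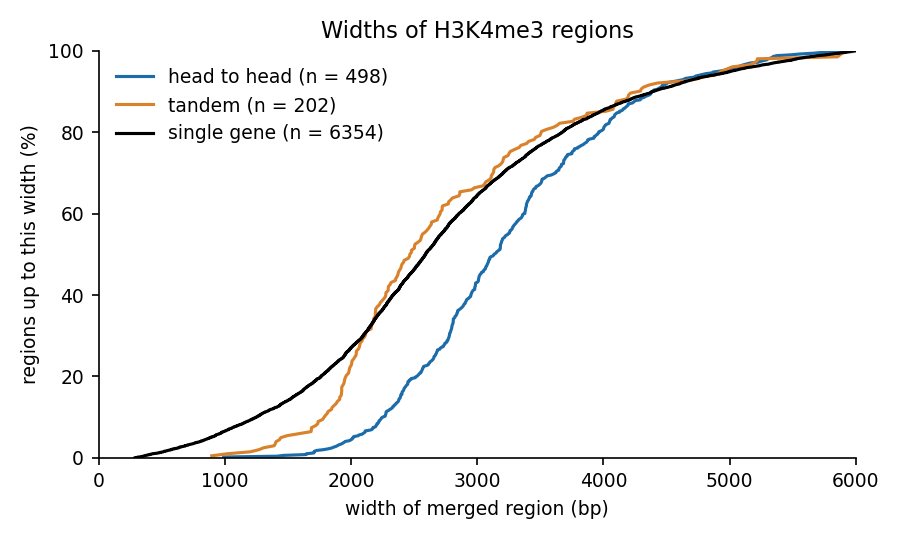
Cumulative share of merged regions (%, vertical axis) up to a given width (bp, horizontal axis) for head-to-head members, tandem members and single-gene promoter regions. The head-to-head curve lies to the right of both others up to about 4000 bp, with medians of 3138.5, 2472.5 and 2589.5 bp in that order.

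In head-to-head pairs spanned by a single region of a list, the region reached a median of 1365 bp into each gene in the knockout list (95% interval 1332 to 1400) and 1401 bp in the wild-type list (1355 to 1434). At single genes the region reached a median of 1545 bp downstream and 797 bp upstream of the start in the knockout list, and 1548 and 865 bp in the wild-type list. With the sides of each head-to-head pair sorted by length, the longer side reached a median of 1650 bp and the shorter 1170 bp in the knockout list. In the wild-type list these were 1640 and 1186 bp. Sorted sides differ by construction, so they are not like the downstream and upstream reaches of single genes, which are set by strand. In tandem pairs the region reached 1402 bp into the gene whose start faces the gap in the knockout list and 1450 bp in the wild-type list. Over the end of the neighbour it reached 453 bp in the knockout list and 471 bp in the wild-type list.

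The summit, the position of highest enrichment that the peak caller gave for a region, rarely lay in the gap itself. The gap is a small part of a head-to-head member, with a median of 97 bp against a median width of 3138.5 bp. Whether summits lay in the gap less often than its length would give was not tested. It fell in the gap at 20 of 503 head-to-head pairs in the knockout list (3.98%, 2.45 to 6.07) and at 18 of 495 in the wild-type list (3.64%, 2.17 to 5.69). The remaining summits split almost evenly, with 240 in the left and 243 in the right gene in the knockout list and 232 and 245 in the wild-type list. In 406 of the 495 pairs spanned in both lists (82.0%) the summits of both libraries lay in the same gene or both in the gap, and in 80 (16.2%) they lay in opposite genes. The summits of both libraries were within 50 bp of each other in 243 pairs (49.1%). In tandem pairs the summit lay in the gene whose start faces the gap in 71.7% of cases in the knockout list and 73.7% in the wild-type list.

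**Figure D4:**
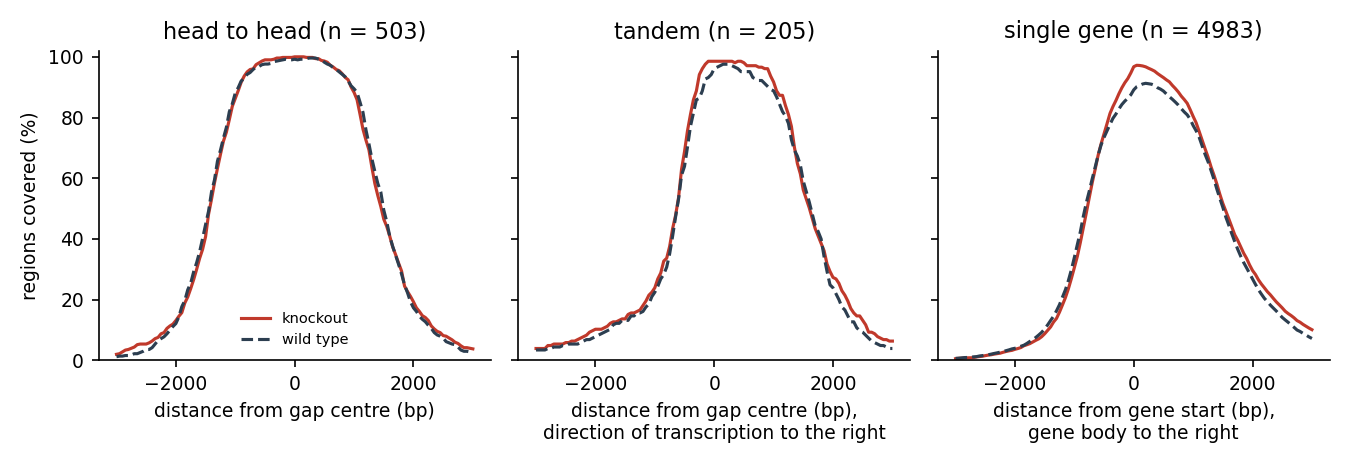
Share of regions covered (%, vertical axis) by distance in bp from the centre of the gap (head-to-head and tandem pairs, the latter turned so that transcription runs to the right) or from the gene start (single genes with a strand), for the knockout list (solid red) and the wild-type list (dashed). The head-to-head profile extends to both sides of the gap. At the centre it was 100% in the knockout list and 99.2% in the wild-type list, against 96.7% and 89.1% at single-gene starts. By the rules a merged region covers every gap centre and every such start, so these values show only how often each list covered it.

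Nearly every member was present in both libraries, which was counted where each list covered at least 1 bp of it. Of 953 members, 948 were in both lists (99.5%, 98.8 to 99.8), 4 in the knockout list only and 1 in the wild-type list only. Over all merged regions under 6000 bp, 19.4% were in the knockout list only and 22.6% in the wild-type list only. Single-gene promoter regions were in both lists in 5962 of 6354 cases (93.8%, 93.2 to 94.4), with 4.8% in the knockout list only and 1.37% in the wild-type list only. All 498 members that hold only head-to-head pairs were in both lists, for which the lower limit is 99.3%. These intervals cover counting of regions only, not differences between animals.

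The share in both lists was also read within classes of width. Among regions of 2000 to 3000 bp, 375 of 375 members (100%) and 2356 of 2377 single-gene regions (99.1%) were in both lists. Among those of 1000 to 2000 bp the shares were 97.7% (85 of 87 members) and 90.2% (1179 of 1307 single-gene regions). The intervals at 1000 to 2000 bp were 91.9 to 99.7% for members and 88.5 to 91.8% for single-gene regions. At 2000 to 3000 bp they overlapped, with 99.0 to 100% and 98.7 to 99.5%. At 5000 to 6000 bp the order was reversed, with 97.9% (47 of 48 members) and 99.1% (325 of 328 single-gene regions). Under 1000 bp, 4 of 6 members and 190 of 413 single-gene regions were in both lists. Members were also strong within their own list. Ranked by the authors' fold enrichment, their median stood at percentile 92.0 of the knockout list and 91.5 of the wild-type list, against 84.5 and 84.8 for single-gene promoter regions. Members were made of 1 region of the knockout list in 943 of 953 cases (99.0%) and of 1 region of the wild-type list in 927 (97.3%). The shares for single-gene promoter regions were 96.5% in the knockout list and 90.8% in the wild-type list.

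The covered length, the number of bp of a member under regions of a list, had a median of 2844 bp in the knockout list and 2814 bp in the wild-type list. The median difference, knockout minus wild type, was -26 bp (95% interval of the median -48 to 4) in members and -15 bp (-25 to -6) in single-gene promoter regions. A difference of at least 500 bp was used as the call. The knockout list was longer by this much at 110 members (11.5%, 9.58 to 13.7). The same call was met by 20% of all merged regions and 18% of single-gene promoter regions. The knockout list was shorter by this much at 71 members (7.45%, 5.86 to 9.30), against 22.6% of all merged regions and 10.6% of single-gene promoter regions. Both shares of members lie below those of single-gene regions, and with 1 library per genotype neither could be set against replicate spread.

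Gains of at least 1000 bp in the knockout list were about as common at tandem members as at single-gene regions, and less common at head-to-head members. The share of all merged regions with such a gain is not given here. The knockout list was at least 1000 bp longer at 18 of 202 tandem members (8.91%, 5.37 to 13.7), at 14 of 498 head-to-head members (2.81%, 1.55 to 4.67) and at 562 single-gene regions (8.84%, 8.16 to 9.57). It was at least 1000 bp shorter at 4 tandem members (1.98%), 4 head-to-head members (0.803%) and 136 single-gene regions (2.14%). A single region of each list spanned the gap in 495 of 503 head-to-head pairs, and the other 8 were spanned in the knockout list only. Tandem pairs were spanned in both lists in 165 of 205 cases, in the knockout list only in 26 and in the wild-type list only in 14. Of the 14 tandem pairs not spanned in the knockout list, 10 had the start covered and the neighbour's end missed, as had 19 of the 26 not spanned in the wild-type list.

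**Figure D5:**
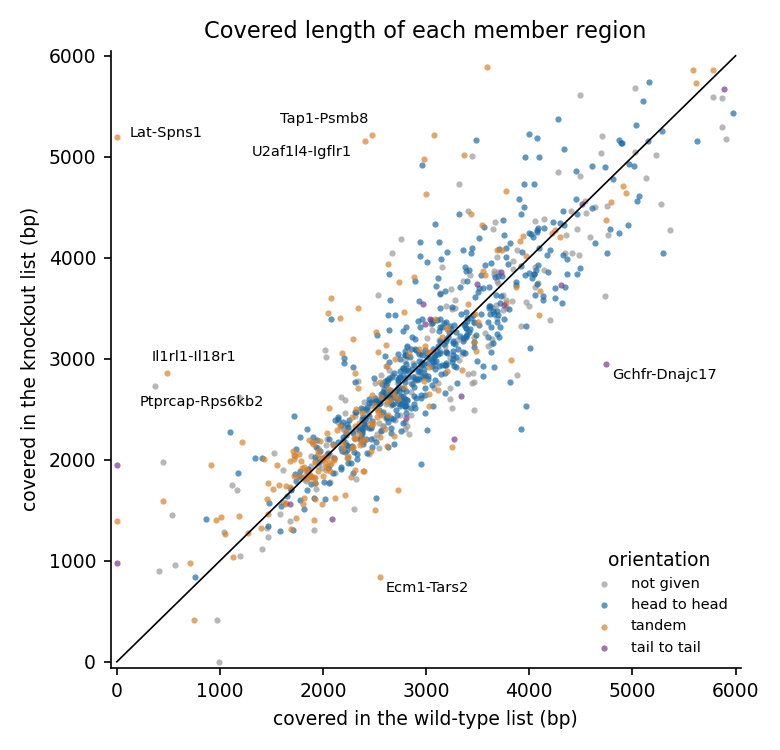
Covered length of each member in the knockout list (bp, vertical axis) against the wild-type list (bp, horizontal axis), coloured by orientation, with the line of equal length; regions holding pairs of different orientations are left out. Most points lie along the line, while Lat-Spns1 (5194 against 0 bp) and Il1rl1-Il18r1 (2862 against 485 bp) lie far above it and Ecm1-Tars2 (838 against 2550 bp) below.

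Of the 202 tandem members, 31 (15.3%, 10.7 to 21.1) were at least 500 bp longer and 9 (4.46%, 2.06 to 8.29) at least 500 bp shorter in the knockout list. The interval of the longer share holds the 20% of all merged regions and the 18% of single-gene regions. The shorter share lies below the 22.6% and 10.6% of these sets. The members with the widest differences are described next. The member between Lat and Spns1, a lysosomal transporter, lies at chr7:126365251-126370444 and covered 5194 bp in the knockout list, against 0 bp in the wild-type list. It ran 4455 bp into Lat and 385 bp over the end of Spns1. At chr1:40465166-40468027, between the end of Il1rl1, the interleukin-33 receptor, and the start of Il18r1, 2862 bp were covered in the knockout list, against 485 bp in the wild-type list. The wild-type region touched the Il18r1 boundary alone, while the knockout region ran 2476 bp into Il18r1. Lat is among the 16 T cell markers above, of which 16 were marked in the knockout list and 5 in the wild-type list, and the part of cell makeup in these gains was not tested.

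The tandem pairs named next were also picked as being among the largest gains of the knockout list, so their direction was set by that choice. Over all 202 tandem members the median difference, knockout minus wild type, was 27 bp (interval of the median -31 to 72). At Tap1-Psmb8 (chr17:34194977-34200194), the end of a subunit of the peptide transporter faces the start of an immunoproteasome subunit, and the covered length was 5218 bp in the knockout list, against 2479 bp in the wild-type list. Most of the extra length lay over the end of Tap1, where the region ran 2249 bp in the knockout list, against 268 bp in the wild-type list. The region ran 2000 bp into Psmb8 in the knockout list, against 1242 bp in the wild-type list. At Nectin4-Arhgap30 it ran 3502 bp into Arhgap30, a GTPase-activating protein, in the knockout list, against 2037 bp in the wild-type list. At Sirt2-Rinl it was 5220 bp in the knockout list, in 1 region, against 3077 bp in the wild-type list, in 3 regions. The difference of 2143 bp became 3199 bp at a −log10 q minimum of 5 and 4179 bp at 10. Rinl is a Ras and Rab interactor and Sirt2 a deacetylase whose end faces it. At Ncln-S1pr4 the start facing the gap belongs to Ncln, encoding nicalin, yet the extra length lay over S1pr4, a sphingosine-1-phosphate receptor of lymphocytes. There the region reached 2918 bp past the S1pr4 boundary in the knockout list, against 515 bp in the wild-type list, while it reached 2177 and 2286 bp into Ncln. The knockout region thus covered the whole of S1pr4 with its own start, which the wild-type region did not reach. U2af1l4-Igflr1, a splicing factor of the U2AF family next to a receptor for IGF-like proteins, had 5157 bp in the knockout list, against 2405 bp in the wild-type list. The wild-type region reached neither facing boundary, but the regions of both lists covered the start of U2af1l4, at the far end of that gene.

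The wild-type list was the longer at other tandem pairs, which were picked as being among the largest losses. At Ecm1-Tars2 (chr3:95738091-95740640), where the start of the extracellular matrix protein Ecm1 faces the end of the mitochondrial threonyl-tRNA synthetase, 838 bp were covered in the knockout list, against 2550 bp in the wild-type list. The knockout region reached neither boundary, while the wild-type region ran 1786 bp into Ecm1. At Copg1-Hmces, a COPI coat subunit before a protein that shields abasic sites in DNA, 2130 bp were covered in the knockout list, against 3252 bp in the wild-type list. Both lists covered the Hmces boundary, and the region of the wild-type list alone touched Copg1, by 42 bp.

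Of 53 head-to-head pairs in members at least 500 bp longer in the knockout list, 49 were spanned by a single region in both lists. Among these 49, the region ran at least 500 bp further into a single gene at 39 pairs, into both genes at 1 pair and into neither at 9. Running that much further into both genes takes at least 1000 bp in all. Only 14 of 498 head-to-head members were at least 1000 bp longer in the knockout list, so this split is largely set by the cut. At Kctd10-Ube3b (chr5:114377291-114382209), an adaptor of cullin ligases facing a ubiquitin ligase, the covered length was 4919 bp in the knockout list, against 2961 bp in the wild-type list. The region ran 3215 bp into Kctd10 in the knockout list, against 1334 bp in the wild-type list, and 1693 against 1616 bp into Ube3b. At Atp5c1-Kin it ran 3771 bp into Atp5c1, the gamma subunit of ATP synthase, in the knockout list, against 2099 bp in the wild-type list. On the side of Kin, a DNA-binding protein, it was the shorter, with 1414 bp in the knockout list, against 1855 bp in the wild-type list. At Gart-Son, a purine synthesis enzyme facing an RNA-splicing protein, the region ran 3110 bp into Son in the knockout list, against 2021 bp in the wild-type list, and 1414 against 1410 bp into Gart. At Hadha-Hadhb both sides were longer, with 1681 against 1036 bp into Hadha and 2202 against 1321 bp into Hadhb. The wild-type list held that member in 2 regions and the knockout list in 1.

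Of 34 head-to-head pairs in members at least 500 bp shorter in the knockout list, the region ended at least 500 bp earlier in a single gene at 15 pairs. It did so in neither gene at 19. Ending that much earlier in both genes takes at least 1000 bp in all, and only 4 of 498 head-to-head members were that much shorter. At Gfer-Noxo1, a sulfhydryl oxidase facing a subunit that organises an NADPH oxidase, the region ran 986 bp into Noxo1 in the knockout list, against 2580 bp in the wild-type list, and 1242 against 1267 bp into Gfer. At Gamt-Dazap1, a creatine synthesis enzyme facing an RNA-binding protein, it ran 1166 bp into Dazap1 in the knockout list, against 2226 bp in the wild-type list, and 1035 against 1403 bp into Gamt. At Dhrs1-Nop9 it ran 929 bp into Dhrs1, a short-chain dehydrogenase, in the knockout list, against 2106 bp in the wild-type list, and 1830 against 1700 bp into Nop9. Vezt-Fgd6 was shorter on both sides, with 1233 against 1723 bp into Vezt, an adherens junction protein, and 2636 against 3395 bp into Fgd6.

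Other known head-to-head pairs hardly differed. Atm-Npat, the kinase of the DNA damage response and a histone gene coactivator, covered 3342 bp in the knockout list and 3378 bp in the wild-type list. Mrps12-Sars2, printed above, covered 2173 bp in the knockout list and 2148 bp in the wild-type list, with the summit in Mrps12 in the knockout list and in Sars2 in the wild-type list. Mcm4-Prkdc, a replicative helicase subunit and the catalytic subunit of DNA-dependent protein kinase, whose orientation was not given, covered 2900 bp in the knockout list and 2801 bp in the wild-type list. Of 12 textbook pairs looked up, these 3, Gart-Son and Hadha-Hadhb were members, 6 had gene bodies that overlap in the gene table, and Tap1-Psmb9 lay in a region of 6000 bp or more.

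Tail-to-tail members had no annotated gene start at the gap itself. Some still covered a whole gene with the start at its far end, such as Srsf2 at Mettl23-Srsf2. At Clstn1-Pik3cd, the ends of a calsyntenin and of the delta catalytic subunit of PI 3-kinase, 1948 bp were covered in the knockout list, against 0 bp in the wild-type list. Gchfr-Dnajc17, a regulator of GTP cyclohydrolase next to a J-domain protein, covered 2947 bp in 3 regions of the knockout list, against 4744 bp in 1 region of the wild-type list. The difference of -1797 bp became -2615 bp at a −log10 q minimum of 5 and -4744 bp with 20000 regions per list. Ltb4r1-Adcy4, a leukotriene B4 receptor next to an adenylyl cyclase, covered 2209 bp in the knockout list, against 3268 bp in the wild-type list. Across the 17 tail-to-tail members, 3 were at least 500 bp longer in the knockout list (17.6%, 3.80 to 43.4) and 5 at least 500 bp shorter (29.4%, 10.3 to 56.0). The shares of all merged regions under 6000 bp, 20% and 22.6%, lie within these intervals.

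Among members with no orientation, Ptprcap-Rps6kb2 stood apart. Ptprcap encodes a protein that binds CD45 in lymphocytes and Rps6kb2 a ribosomal S6 kinase. This member covered 2728 bp in the knockout list, reaching 2507 bp past the Ptprcap boundary, against 368 bp in the wild-type list that touched neither boundary. The histone pair H2ac6-H2bc4 covered 4275 bp in the knockout list, against 5362 bp in the wild-type list. Tst-Mpst, both sulfurtransferases of cysteine metabolism, covered 2843 bp in the knockout list, against 3883 bp in the wild-type list. Over the 230 such members, 23 were longer and 23 shorter by at least 500 bp in the knockout list. Each is a share of 10% (6.45 to 14.6), below the 20% and 22.6% of all merged regions under 6000 bp.

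The 5 members in a single list were Lat-Spns1, Clstn1-Pik3cd and 3 shorter ones. Selenom-Smtn, the ends of a selenoprotein and of smoothelin, covered 978 bp in the knockout list, and Cox6b2-Fam71e2, at the start of a testis form of a cytochrome oxidase subunit, covered 1391 bp there. Rilp-Scarf1, a Rab7 effector next to a scavenger receptor, covered 992 bp in the wild-type list only. By the authors' values all 5 lay below the lower quartile of members in their list. The fold enrichment at the summit was 17.1 at Lat-Spns1, 12.2 at Selenom-Smtn, 6.08 at Clstn1-Pik3cd and 5.80 at Cox6b2-Fam71e2, against a median of 38.4 and a lower quartile of 31.5 for members in the knockout list. It was 4.68 at Rilp-Scarf1, against a median of 33.0 and a lower quartile of 27.04 for members in the wild-type list. With the 20000 regions of highest −log10 q in each list, Clstn1-Pik3cd, Cox6b2-Fam71e2 and Rilp-Scarf1 were no longer covered in either list, and Rilp-Scarf1 was already lost at a −log10 q of at least 10.

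Of all coding genes, 8.58% lay at members, and gene groups differed from this share. The share was 32.1% for proteins of the mitochondrial ribosome (25 of 78 genes), 34.4% for the respiratory chain and ATP synthase (33 of 96), 35.7% for RNA polymerase subunits (10 of 28) and 28.6% for DNA repair and replication (10 of 35). It was 47.5% for histones (38 of 80), whose genes lie in clusters, 24.3% for tRNA synthetases (9 of 37) and 18.9% for cytosolic ribosomal proteins (17 of 90). Proteasome genes gave 15.7% (8 of 51, 7.02 to 28.6), mediator subunits 10.0% (3 of 30, 2.11 to 26.5) and zinc finger genes named Zfp 6.30% (25 of 397). No test of enrichment was made, and how closely the genes of a group are packed differs between groups: 30 of the 78 mitochondrial ribosome genes and 43 of the 397 Zfp genes had a neighbour within 1 kb.

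Calls by gene group are counts beside the shares of all members, of which 11.5% were longer and 7.45% shorter by 500 bp, and of all merged regions, at 20% and 22.6%. No difference between a group and other members was tested. None of the 25 mitochondrial ribosome members was called longer or shorter by 500 bp, and their median difference was -6 bp. The largest differences were 458 bp at Mrps18b-Ppp1r10, with 5556 bp in the knockout list and 5098 bp in the wild-type list, and -404 bp at Mrpl54-Apba3, with 3564 bp in the knockout list and 3968 bp in the wild-type list. Of 33 respiratory chain members, 4 were longer and 2 shorter in the knockout list, with a median of -53 bp. Besides Atp5c1-Kin, these included Sdha-Ccdc127, holding the flavoprotein of succinate dehydrogenase, at 3587 bp in the knockout list, against 2649 bp in the wild-type list. Of 10 RNA polymerase members none was longer and 1 was shorter, 1700088E04Rik-Polr2f, at 1959 bp in the knockout list, against 2949 bp in the wild-type list.

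Histone members numbered 19, of which 2 were longer and 3 shorter in the knockout list. H2az1-Dnajb14, at the end of a gene for the variant H2A.Z, covered 3191 bp in the knockout list, against 2292 bp in the wild-type list. H2ac15-H2bc15 covered 2828 bp in the knockout list, against 3555 bp in the wild-type list. Of 19 cytosolic ribosome members, 1 was longer and 4 were shorter. Rpl36-Lonp1 was at 2508 bp in the knockout list, against 3254 bp in the wild-type list.

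Autophagy genes, of interest because the knockout lacks Atg5, gave 8 members, of which 1 was longer and 1 shorter, about as many as the shares of all members would give. Slc35a5-Atg3, printed above, covered 4099 bp in the knockout list, against 3442 bp in the wild-type list, and the extra length lay in Atg3, where the region ran 2651 bp, against 2034 bp in the wild-type list. Abcb6-Atg9a, an ABC transporter start facing the end of the autophagy lipid scramblase, covered 1654 bp in the knockout list, against 2208 bp in the wild-type list. At the start of Atg9a, which faces Ankzf1 head to head, 3191 bp were covered in the knockout list and 2891 bp in the wild-type list. At Thap4-Atg4b, holding a protease of LC3-family proteins, the spanning region ran 1729 bp into Atg4b in the knockout list, against 764 bp in the wild-type list. The wild-type list held this member in 2 regions, the other of which lay further into Atg4b. On the side of Thap4 the knockout region was the shorter, with 1591 against 1897 bp, and 3386 and 3100 bp were covered in all.

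Antigen presentation gave 3 members, of which 2 were longer in the knockout list, too few to set against the 20% of all merged regions. Besides Tap1-Psmb8 this was Zbtb22-Tapbp, at the start of tapasin, with 3463 bp in the knockout list, against 2789 bp in the wild-type list. At the other end of Tapbp, facing Rgl2, 3165 bp were covered in the knockout list and 3467 bp in the wild-type list. Of 8 proteasome members, 2 were longer and 1 was shorter. Psme2-Rnf31, with a proteasome activator subunit, covered 4196 bp in the knockout list, against 3514 bp in the wild-type list, and Sirt3-Psmd13, with a subunit of the regulatory particle, 2528 against 3065 bp. The purine and folate list had only 2 members, Gart-Son, longer by 1093 bp in the knockout list, and Mthfd2-Mob1a, holding a mitochondrial folate enzyme, longer by 729 bp. Cd68-Eif4a1, at the start of a macrophage glycoprotein, covered 5734 bp in 1 region of the knockout list and 5617 bp in 2 regions of the wild-type list. The wild-type regions covered the facing boundary of Eif4a1 but not the start of Cd68. The summit of the knockout region lay beyond the far end of Cd68, so these lengths do not describe the Cd68 start alone. The difference of 117 bp became 851 bp at a −log10 q minimum of 10.

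The limits of the rule cut through a continuous range of widths and gaps. Just inside the width limit lay Mettl23-Srsf2 at 5996 bp, Ppp1r15a-Plekha4 at 5995 bp and Ncln-S1pr4 at 5994 bp, and just outside it Plxnb2-Dennd6b at 6031 bp, Bmp1-Sftpc at 6110 bp and Ier3-Flot1 at 6167 bp. Wider regions were more often longer in the knockout list: of all merged regions of 6000 bp or more, 59.2% were at least 500 bp longer and 17.7% at least 500 bp shorter, and of single-gene promoter regions of that width 57.5% and 19.2%. Just inside the gap limit lay Cdk2ap2-Pitpnm1 at 978 bp, P3h4-Fkbp10 at 977 bp and Ypel3-Tbx6 at 972 bp, and just outside it Myd88-Acaa1a at 1009 bp.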

How the data were processed

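Native chromatin digested with micrococcal nuclease had been immunoprecipitated with an H3K4me3 antibody, per the labels' protocols. Regions were called with MACS2 on GRCm38 (mm10), per the submitters' processing notes; no source used here gives its version or settings, the aligner or the depth. Each deposited list comes from 1 library, as its peak names show. The deposited fold values are ratios of summit signal to background, the deposited −log10 q describes that summit too, and neither the deposited −log10 p nor the deposited score was used. These are the authors' own values, used only to rank or filter within 1 list, so differences rest on called lengths.

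Regions of chromosomes 1 to 19 and X were merged at 0 bp (82 regions of the knockout list and 86 of the wild-type list lay elsewhere). Gene positions came from RefSeq (GRCm38.p6, 21631 protein-coding genes), which gave no exons. Strand came from the RefSeq promoter table for 17274 genes and for none on chromosome 18. Promoter windows were used where the start lay within 100 bp of the gene boundary, except for printed ones. Matches to longer letter patterns were computed but are not reported here. Intervals of shares are exact (Clopper-Pearson) and those of medians come from order statistics, at 95%, and cover counting only. Alternatives changed the −log10 q minimum, the number of regions per list, the merging gap, the minimum coverage, the gap, width and isolation limits, and orientation.

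Named pairs were textbook bidirectional pairs, members in 1 list, the 10 largest gains and losses, the extremes of each gene group, marker genes and members at the limits, leaving out predicted genes. One named member and some pairs just beyond the gap limit are not reported here. Members and lists were chosen with earlier results of these data known. The steps, tested on simulated lists, ran in SciPy 1.17.1 and pandas 2.3.3 (NumPy 2.4.6, Matplotlib 3.10.9) under Python 3.11.15.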

Additional observations from a re-analysis of the deposited data

How the results depend on the processing

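Under the 10 alternatives the median covered length difference of members stayed within its interval, and the remaining results moved as follows. At a −log10 q of at least 5 the share of single-gene promoter regions in both lists was 92.7%. At a −log10 q of at least 10, 98.0% of members and 89.8% of single-gene regions were in both lists, 17 members were in the knockout list only and 2 in the wild-type list only, and the single-gene median width was 2637 bp. With the 20000 regions of each list with the highest −log10 q, the values were 96.6% and 86.9%, 28 and 4 members, and 2719 bp. Without a width limit the single-gene median width was 2673.5 bp and the single-gene median difference, knockout minus wild type, was -5 bp. With single genes at least 1 kb from others the single-gene median width was 2550 bp. With head-to-head pairs only, there were 503 regions, of which 100% were in both lists, 0 in the knockout list only and 0 in the wild-type list only, with a median width of 3154 bp. Of 79 named members, the difference moved by under 500 bp in 77 at a −log10 q of at least 5, in 74 at 10 and in 70 with 20000 regions per list. None of these 79 changed sign where it had been called, but 3 members in a single list were lost with 20000 regions per list (Clstn1-Pik3cd, Cox6b2-Fam71e2 and Rilp-Scarf1, each at 0 bp). Lengths depend on read depth, which is not known for either library. No paired analysis was possible because each genotype had 1 library.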

Other observations

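Regions of 6000 bp or more that ran across a close gene pair were outside the width limit. There were 50 of them, holding 56 pairs, with a median width of 7159 bp. Their median covered length difference, knockout minus wild type, was 698 bp (95% interval of the median 144 to 1493), and 26 (52.0%) were at least 500 bp longer and 4 (8%) at least 500 bp shorter in the knockout list. Of all 922 merged regions of 6000 bp or more, 59.2% were longer and 17.7% shorter by as much, with a median difference of 1177.5 bp, and of 428 single-gene promoter regions of that width 57.5% were longer and 19.2% shorter. The longer coverage in the knockout list is thus common to wide regions. The largest difference lay at Tapbpl-Cd27, which holds a costimulatory receptor of lymphocytes and covered 13060 bp in the knockout list, against 1941 bp in the wild-type list. Rab37-Slc9a3r1 covered 12117 bp in the knockout list, against 5746 bp in the wild-type list, and Tbc1d10c-Ppp1ca 10265 bp, against 4297 bp. The region that holds both Shisa5-Trex1 and Trex1-Atrip, around a DNA exonuclease, covered 12292 bp in the knockout list, against 7325 bp in the wild-type list. Psmb9-Tap1, the head-to-head neighbour of the Tap1-Psmb8 member, covered 7265 bp in the knockout list, against 4226 bp in the wild-type list. The opposite was seen at Bmp1-Sftpc, with 3967 bp in the knockout list, against 6110 bp in the wild-type list. Pairs at genes of RNA-binding proteins were both close and apart, with 9193 bp in the knockout list and 8927 bp in the wild-type list at Hnrnpc-Rpgrip1, and 9676 against 7703 bp at Hnrnpa2b1-Cbx3. The examples were chosen after their values were seen, and the part of cell makeup in these differences was not tested.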
